A study of Quercus ilex with 12 samples.

Results

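The leaf transcriptome of watered holm oak (*Quercus ilex*) seedlings was compared between a second and a first sampling, so that the change with time was seen in the absence of imposed drought. The comparison uses 6 of the 12 libraries of the series, chosen by their labels: 3 of well-watered control seedlings at the second sampling and 3 of well-watered control seedlings at the first. The other 6 libraries came from seedlings under drought imposed by withdrawing irrigation, 3 at each sampling. The label of each seedling gives an age of 6 months and leaf as tissue, and no genotype or line. The sample labels place the second sampling at 25 days and the first at 20 days, whereas the series description gives 24 and 17 days. The labels call the samples biological replicates without saying how many seedlings each holds, so p-values measure the spread between these samples.

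Holm oak is an evergreen tree of the Mediterranean, whose tough leaves live for several seasons. In leaves of woody seedlings, RNA levels follow the age of the leaf, from growth and cell wall formation to photosynthesis, and they also follow the hour of the day, light and temperature through the circadian clock and other signals. Watered plants taken beside each drought sampling are the usual reference for these influences. Reads were assigned to 47568 assembled contigs, which carry identifiers without gene names. Leaf markers and pathways were therefore not analysed here, and contigs are described by their levels, lengths and behaviour over the libraries. In RNA from whole leaves, a change in the share of a cell type and a change in RNA per cell cannot be told apart. Contigs of alleles or close paralogs share reads in this kind of counting, which leaves the level of any one contig uncertain where a near-identical one exists.

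The watered libraries held 27847896, 24161722 and 11239487 estimated counts at the second sampling, against 22718193, 24222599 and 25724896 at the first (replicates 1, 2 and 3 in this order). Replicate 3 of the second sampling was thus the shallowest. Over the 33602 contigs kept by the filter on low counts, log2 CPM (counts relative to the scaled total of the library) correlated with r = 0.83 to 0.90 among the 3 libraries of the second sampling, with 0.83 to 0.89 among those of the first, and with 0.77 to 0.89 over the 9 pairs between samplings. These correlations are across contigs, which are not independent replicates. The library labelled watered, second sampling, replicate 2 stood apart from its group. Its highest correlation was 0.892, with replicate 2 of the first sampling, against 0.864 at best within its own sampling. That library of the first sampling stood apart as well, with 0.843 at best in its own group. Replicates 1 and 3 of the second sampling were each other's nearest library (r = 0.897), and replicates 1 and 3 of the first correlated with 0.886. First-sampling replicate 1 correlated best with a library outside its group as well, replicate 3 of the droughted second sampling (0.893). That droughted library correlated with 0.833 and 0.853 within its own group, against 0.893 and 0.885 with watered first-sampling replicates 1 and 3. The counts of calls and of contigs that separate the samplings are also given without the libraries numbered 2.

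**Figure D1:**
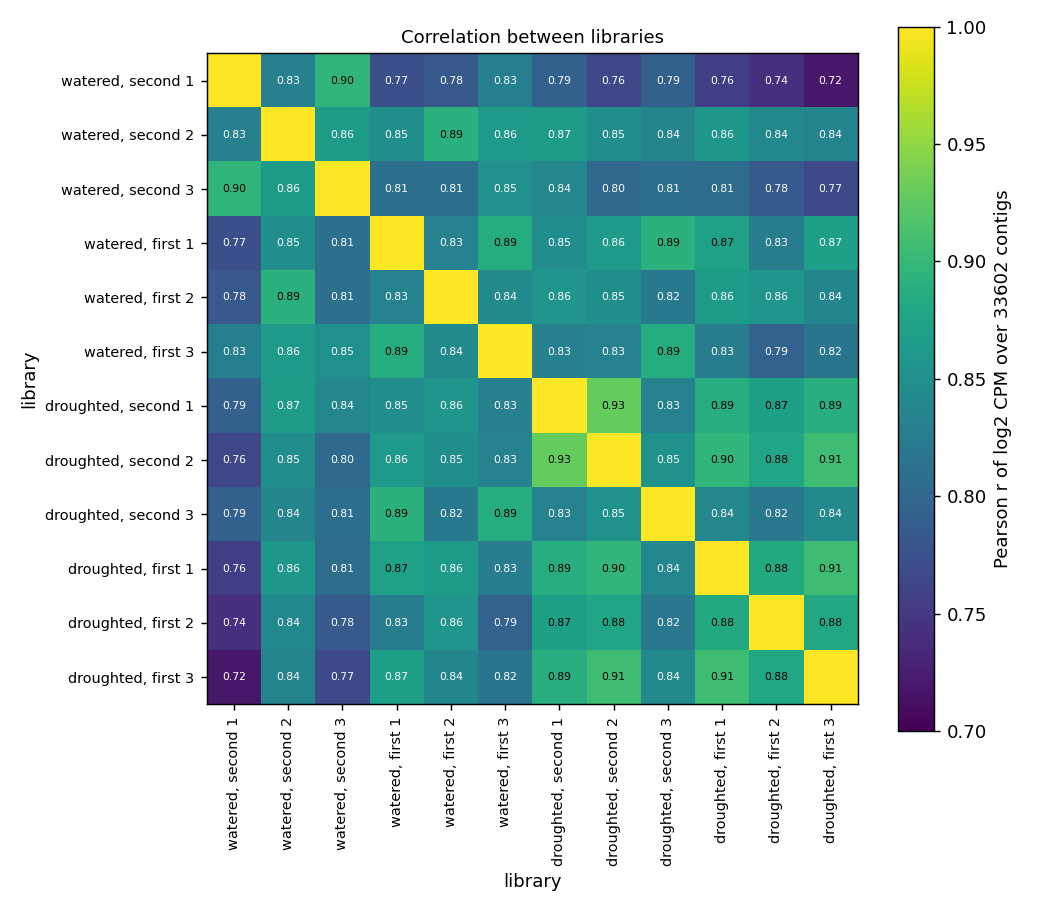
Pearson correlation of log2 CPM between the 12 libraries over the contigs kept by the filter, with libraries on both axes and the value written in each cell. Watered replicate 2 of the second sampling is closest to watered replicate 2 of the first (0.89), while watered replicates 1 and 3 of the second sampling are closest to each other (0.90).

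The same layout was seen in a principal component analysis of the 6 watered libraries. The first component held 39.5% of the variance and placed second-sampling replicates 1, 2 and 3 at 184.5, -46.7 and 161.1, against -128.4, -114.5 and -56.0 for those of the first. On this axis replicate 2 of the second sampling lay next to the first-sampling libraries and far from the other libraries of its own sampling. The second component, with 22.3%, set apart the libraries numbered 2, at 100.2 for the second sampling and 133.7 for the first, from the other 4, at -125.0 to 6.4. Of the total variance of log2 CPM over the 6 libraries, 30.2% lay between the samplings. Without both libraries numbered 2 it was 55.1%. Part of either share arises from the spread between libraries without any change with time, and this part is larger with fewer libraries.

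By the measure given next, the leaf RNA of the second-sampling libraries was concentrated in fewer contigs, which did not pass a test. The number of contigs that together held 50% of the TPM (a level scaled for contig length) was 796, 919 and 923 in the second-sampling libraries, against 1190, 1253 and 1186 in those of the first. The samplings did not overlap, and the means were 879 ± 72.2 against 1210 ± 37.6 contigs (SD, n = 3 each; two-sided exact permutation test, p = 0.1, the smallest that 3 against 3 libraries allow; Benjamini-Hochberg adjusted over the 10 library values tested, p = 0.333). In droughted leaves the order was the opposite, with 1088, 982 and 1054 contigs at the second sampling against 845, 975 and 716 at the first. This measure was chosen after the data were seen, and the difference between watered and droughted leaves was not tested. Thinned to the lowest total of 11239391 rounded counts, the second-sampling libraries showed at least 1 count for 35589, 37561 and 34059 contigs, against 37466, 39533 and 37522 for the first. Second-sampling replicate 2 lay within the first-sampling range, so these values overlapped (35736 ± 1756 against 38174 ± 1178 contigs, SD, n = 3 each, two-sided exact permutation p = 0.3, adjusted p = 0.429). The 10 most abundant contigs held 4.07%, 11.1% and 4.48% of the estimated counts at the second sampling, against 5.34%, 4.99% and 4.41% at the first (two-sided exact permutation p = 0.9, adjusted p = 0.9). The high value of replicate 2 came with a single contig of 3103 bases, which took 0.123%, 4.80% and 0.543% of the counts at the second sampling, against 0.217%, 1.15% and 0.553% at the first. It was also the most abundant contig of first-sampling replicate 2, and its share in the droughted libraries was 0.0981% to 0.364%.

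With TMM scaling, abundant contigs were higher and rare contigs lower at the second sampling, relative to the median of all contigs. When the 33602 contigs were split in quartiles by mean TPM over the 6 watered libraries, the median log2 fold change of the fit was -0.47 in the lowest quartile (up to 1.5 TPM), -0.23 and -0.10 in the next, and 0.17 in the highest (20.9 TPM and above). The lowest quartile held 0.503%, 0.618% and 0.382% of the TPM of the second-sampling libraries, against 0.761%, 1.06% and 0.605% in the first. Second-sampling replicate 2 lay above first-sampling replicate 3, so these shares overlapped. The order of the lowest and the highest quartile was kept without any one of the 6 libraries. Without one library, the median of log2 CPM differences ran from -0.67 to -0.27 in the lowest quartile and from 0.11 to 0.25 in the highest. The sign in the highest quartile depends on the scaling: with a pseudocount of 0.5, the median difference was 0.18 with the TMM factors, -0.11 with library totals only and -0.15 as TPM, against -0.24, -0.37 and -0.42 in the lowest. With library totals the middle quartiles had -0.421 and -0.385, both below the lowest quartile (-0.373). As TPM they had -0.479 and -0.423, again below the lowest (-0.416). Droughted leaves, with the TMM factors, gave median differences of -0.34 and 0.16 in the lowest and the highest of the same quartiles. Length showed less: over quartiles by contig length the medians lay between -0.16 and -0.09.

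Over all 33602 contigs tested, the median log2 fold change was -0.12, with an interquartile range of -0.80 to 0.54. The median moved with the scaling, from -0.11 with TMM to -0.08 with RLE, -0.13 with upper-quartile factors, -0.33 with library totals and -0.37 as TPM (each with a pseudocount of 0.5). Without replicate 2 of the first sampling the fitted median was 0.01, and without replicate 2 of the second it was -0.29. The TMM factors of the samplings themselves did not overlap, at 0.823, 0.959 and 0.876 for the second against 1.07, 1.18 and 1.02 for the first. A fitted change of at least 2-fold was found for 14.0% of contigs upwards and 20.2% downwards, before any test. In droughted leaves a change of that size in either direction was fitted for 23.3% of contigs, against 34.2% in watered leaves. Such shares also grow with the spread between libraries, and their difference was not tested.

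Few of these changes passed the test. With edgeR's quasi-likelihood test and Benjamini-Hochberg adjustment, 7 of 33602 contigs (0.0208%) were called at an adjusted p under 0.05, 3 higher (0.00893%) and 4 lower (0.0119%) at the second sampling. An unadjusted p under 0.05 was found for 5725 contigs, 3006 higher and 2719 lower. The number called depended strongly on the libraries used. Without replicate 2 of the second sampling, edgeR called 3090 of 35307 contigs (8.75%), 1548 higher and 1542 lower, and all 7 were among them. Without both watered libraries numbered 2 it called 1833 of 34407 (5.33%), 850 higher and 983 lower, again with all 7. Without replicate 1 or replicate 3 of the second sampling it called 0 contigs (3526 and 3771 at an unadjusted p under 0.05), and without any one library of the first sampling 1. The droughted libraries share the estimate of the spread, and leaving out one of them gave 1 to 5 calls. DESeq2 called 2269 of the 28886 contigs to which it gave an adjusted p, and limma-trend on log2(TPM + 1) 42 of 33602.

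**Figure D2:**
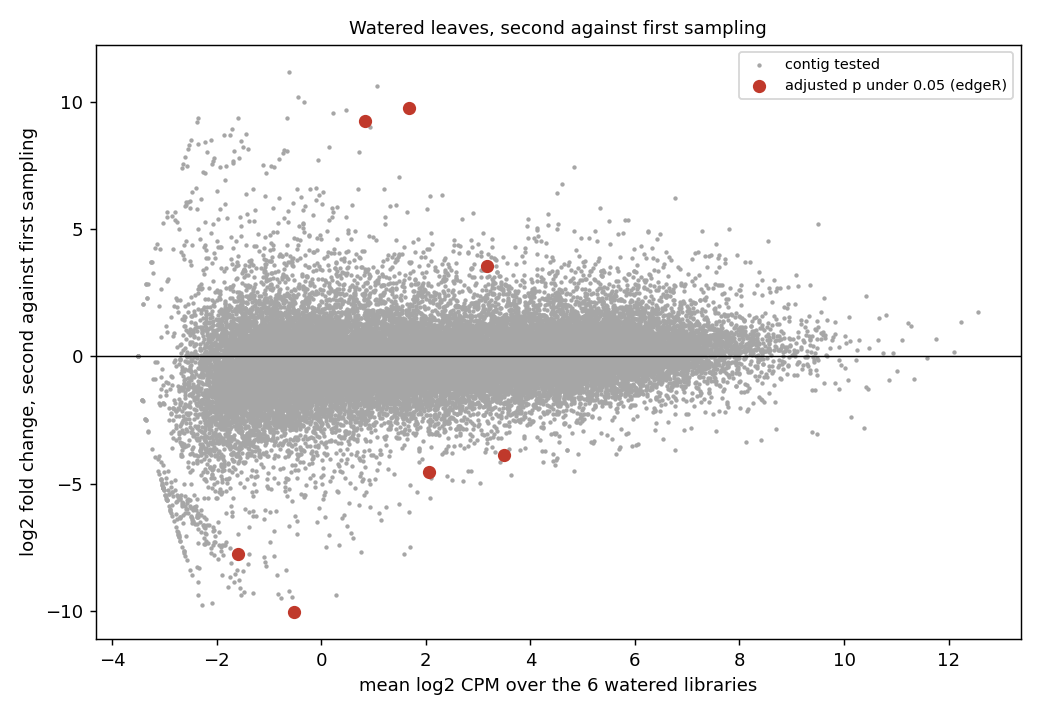
Log2 fold change of watered leaves, second against first sampling, over the mean log2 CPM of the 6 watered libraries, for each contig tested (grey) and for the 7 contigs with an adjusted p under 0.05 (red). The called contigs have fitted changes of at least 11.5-fold, and many contigs that were not called have changes as large.

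The 7 called contigs were 803 to 4237 bases long, and their fitted change was at least 11.5-fold. Of them, 6 shared the highest adjusted p of 0.0447 and so lay close to the threshold. In 5 of the 7, one of the samplings had a mean under 1 CPM. None was among the highest quartile by TPM. The 2 that rose and the 2 that fell with the smallest p are described one by one.

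contig-87000016, of 4237 bases, was seen in watered leaves of the second sampling and hardly in any other library. It had 24.6, 25.2 and 29.9 CPM at the second sampling, against 0, 0.0352 and 0.0765 CPM at the first. The 3 second-sampling libraries, replicate 2 included, lay close together and far above the rest. The summed counts were 1438 against 3, a ratio of 676 (95% exact interval 231 to 3281, counting error only). The fit gave a log2 fold change of 9.26 (SE 1.11, edgeR adjusted p = 0.0447). In droughted leaves the contig had 0, 0.222 and 0.0874 CPM at the second sampling and 0, 0.0463 and 0 CPM at the first. Its change in watered and in droughted leaves was not shown to differ (difference of log2 fold changes 6.68, SE 2.49, edgeR adjusted p = 0.488).

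contig-1505000020, of 803 bases, was measured in all 12 libraries. It had 31.5, 24.4 and 35.6 CPM in watered leaves of the second sampling, against 2.57, 3.20 and 2.14 CPM at the first. The groups did not overlap, and the lowest second-sampling value was that of replicate 2. The means were 30.5 ± 5.66 against 2.64 ± 0.533 CPM (SD, n = 3 each), an 11.5-fold fitted difference (log2 fold change 3.53, SE 0.44, edgeR adjusted p = 0.0447). In droughted leaves it had 7.72, 4.22 and 2.71 CPM at the second sampling, against 2.39, 2.18 and 1.70 CPM at the first (log2 fold change 1.22, SE 0.41, edgeR adjusted p = 0.766). Droughted libraries of the second sampling were thus also all above those of the first, by less than in watered leaves. The difference between the changes, 2.31 (SE 0.58), did not pass (edgeR adjusted p = 0.483). Per length it was the more abundant of the contigs that rose, at a mean of 35.2 TPM in watered leaves of the second sampling against 5.03 TPM for contig-87000016.

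contig-1897000000, of 3819 bases, fell and passed in more alternatives than any other of the 7. It had 2.49, 3.33 and 2.95 CPM at the second sampling, against 47.3, 39.5 and 40.9 CPM at the first. The replicates of each sampling lay close together, and neither library numbered 2 departed from its group. It was 14.5-fold lower at the second sampling (log2 fold change -3.86, SE 0.35, edgeR adjusted p = 0.00689). In droughted leaves it had 19.4, 46.6 and 33.8 CPM at the second sampling, against 28.1, 25.4 and 30.1 CPM at the first, which overlapped (log2 fold change 0.26, SE 0.31, edgeR adjusted p = 0.946). A low level was seen in watered second-sampling libraries alone among the 12. The difference between the watered and the droughted change, -4.12 (SE 0.45), missed the threshold (edgeR adjusted p = 0.0557).

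contig-1591000012, of 857 bases, had no count in any watered library of the second sampling, against 5.51, 3.55 and 8.46 CPM in those of the first. With the second-sampling group set to 3 counts in all, it was at least 108-fold lower (edgeR adjusted p = 0.0447). In droughted leaves it was found in every library, with 4.49, 7.69 and 2.14 CPM at the second sampling against 3.14, 3.38 and 6.01 CPM at the first. The droughted groups overlapped (edgeR adjusted p = 0.983), and the difference between the watered and the droughted change did not pass (edgeR adjusted p = 0.174).

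The 4 calls differed in how they stood up to other settings, with adjusted p-values from edgeR where no other tool is named. The fall of contig-1897000000 passed in 19 of 23 alternatives, with adjusted p-values from 3.4e-22 with DESeq2, and from 0.0022 over the edgeR fits, up to 0.427. It was lost without second-sampling replicate 1 (0.101) or 3 (0.135), in a fit of the 6 watered libraries (0.0846) and in that fit blocked by replicate number (0.427). The changes of contig-87000016, contig-1505000020 and contig-1591000012 passed in 9 of 22, 9 of 23 and 8 of 22 alternatives, with DESeq2 adjusted p-values of 4.6e-18, 8.8e-13 and 2.1e-08 and edgeR values from 0.0093 up to 0.427. All 3 were lost without any single watered library other than second-sampling replicate 2. Their adjusted p-values were 0.238 without second-sampling replicate 1, 0.206 to 0.219 without replicate 3, 0.259 to 0.337 without first-sampling replicate 1, 0.117 to 0.16 without replicate 2 and 0.149 to 0.224 without replicate 3. They were lost as well without any one droughted library of the first sampling (0.0747 to 0.102) and without droughted second-sampling replicate 2 (0.0516 to 0.107), and contig-1591000012 also without droughted second-sampling replicate 1 (0.105). All 3 were lost with RLE size factors (0.0512), with the replicate number as a further block (0.16 to 0.182) and in the fit of the 6 watered libraries (0.0846 to 0.288), and contig-1505000020 with upper-quartile size factors (0.0518). Without watered second-sampling replicate 2 they were at 0.0093. The difference between the watered and the droughted change passed with DESeq2 for all 4 (adjusted p from 3.5e-12 to 0.0219). For contig-1897000000 it also passed in edgeR without watered second-sampling replicate 2 (0.0497) or droughted second-sampling replicate 1 (0.0123), and with at least 10 counts in every library (0.0306). With limma-trend it passed for contig-87000016 on log2(TPM + 1) (0.0195) and for contig-1591000012 on log2(TPM + 0.1) (0.0493).

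Of the other 3 called contigs, 1 also fell in droughted leaves. The third that rose had 70.2 ± 4.50 CPM at the second sampling and 0.0755 ± 0.102 CPM at the first (SD, n = 3 each), with 0.142 ± 0.154 and 0.0463 ± 0.0802 CPM in droughted leaves of the second and the first sampling. One that fell had no count in the watered libraries of the second sampling and 1.19 ± 0.345 CPM in those of the first, with 2.89 ± 0.461 and 3.73 ± 0.932 CPM in the droughted ones of the second and the first sampling. With 3 counts set for the whole second-sampling group, it was at least 21.8-fold lower. The last had 0.847 ± 0.215 CPM at the second sampling and 19.6 ± 5.71 CPM at the first. In droughted leaves it fell to 0.103 ± 0.0913 CPM at the second sampling, against 36.4 ± 12.5 CPM at the first (log2 fold change -8.32, SE 0.73, edgeR adjusted p = 0.00528).

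**Figure D3:**
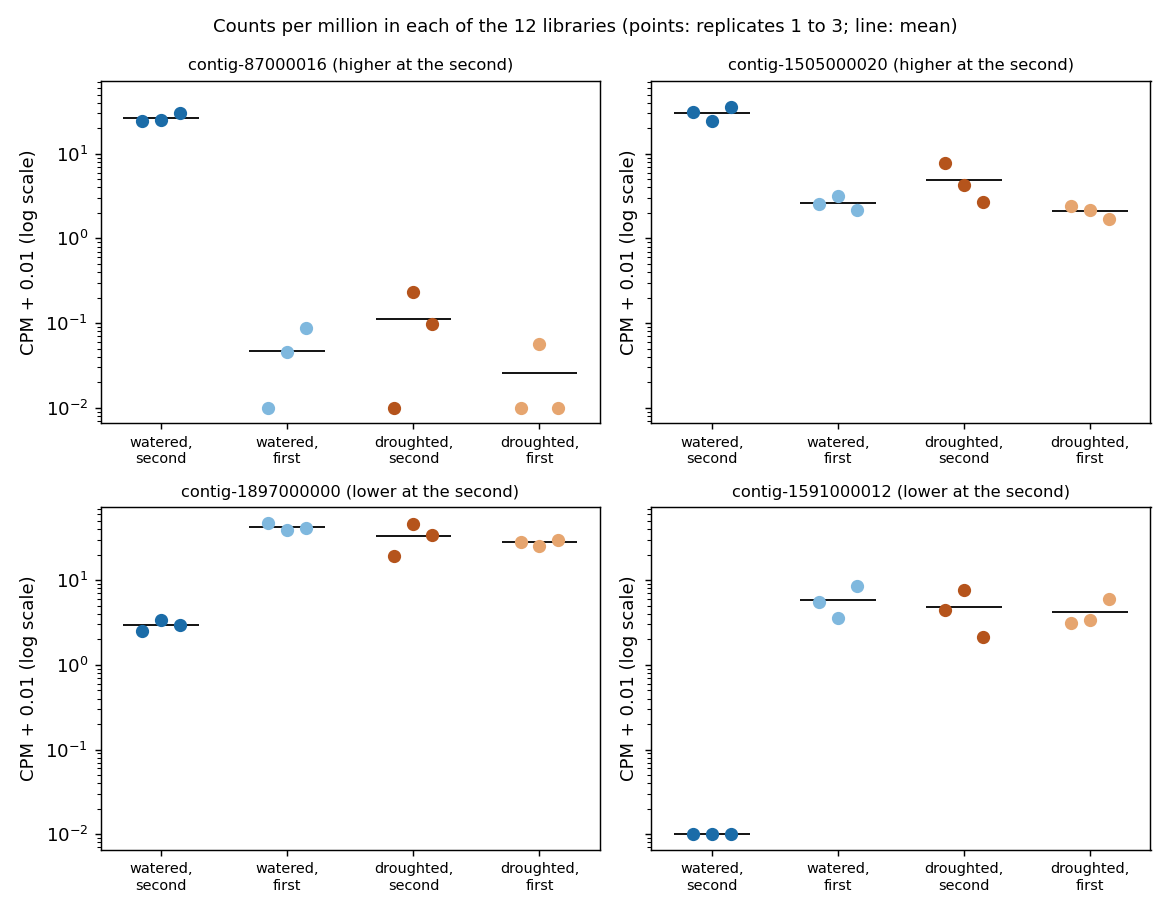
CPM of the 4 described contigs in each of the 12 libraries, with 0.01 added and on a log scale. Points are replicates 1 to 3 and lines are group means. The 3 watered second-sampling libraries stand apart from the 9 others in every panel, at 24.4 to 35.6 CPM for the contigs that rose and at 0 to 3.33 CPM for those that fell.

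A larger number of contigs separated the samplings completely, most without passing the test. In 6239 of 33602 contigs (18.6%) the 3 second-sampling watered libraries lay all above or all below the 3 of the first, 2858 higher (8.51%) and 3381 lower (10.1%). As TPM, the same count was 7537, with 1565 higher and 5972 lower. The median log2 fold change was 1.31 among those higher and -1.44 among those lower. In only 249 of the higher and 142 of the lower contigs were the nearest libraries of the samplings at least 2-fold apart, with 0.5 CPM added. Non-overlap upwards was found for 15.3% of the contigs in the highest quartile by TPM and for 3.20% in the lowest, and downwards for 5.88% and 11.7%. Among the 100 most abundant contigs by mean TPM, 67 had a positive and 33 a negative log2 fold change, 21 were higher without overlap and 3 lower, and 0 were called (edgeR; over all contigs 7 called, 0.0208%). Without replicate 2 of the second sampling 15374 contigs (45.8%) did not overlap, and without both libraries numbered 2 19383 (57.7%). Without replicate 2 of the first sampling the number was 10868 (32.3%), and without replicate 3 of the first 10248 (30.5%). Such numbers also grow because fewer libraries have to agree, and some contigs separate by the order of few values alone. With 3 against 3 libraries in random order, a share of 0.1 would separate completely in either direction. That share is larger with fewer libraries, so these numbers are no counts of contigs that changed with time. Without both libraries numbered 2, contigs were higher without overlap in 40.2% of the highest quartile and 14.4% of the lowest, and lower in 29.2% and 29.5%, so the quartiles then differed little in the contigs lower at the second sampling. Among the 100 most abundant contigs, 41 were then higher and 22 lower without overlap.

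The contigs that separated the samplings held different shares of the leaf RNA in the second-sampling libraries. The 2858 higher contigs held 30.6%, 15.1% and 28.0% of the TPM in the second-sampling libraries, against 8.50%, 10.3% and 10.2% in the first. The 3381 lower contigs held 1.80%, 3.59% and 2.12%, against 9.23%, 6.61% and 9.29%. These contigs were chosen on the same libraries, so the direction is given by the choice. Replicate 2 of the second sampling had the smallest share of the higher contigs and the largest of the lower ones in its group. In the droughted libraries, which were not used to choose them, the higher contigs held 14.2%, 10.6% and 8.55% at the second sampling, against 9.90%, 11.3% and 7.64% at the first. All of these lay below the 15.1% of the lowest watered second-sampling library. That value was itself raised by the choice of contigs, so the gap is no test of a difference from droughted leaves. The lower contigs held 5.06%, 5.71% and 10.7%, against 5.77%, 5.90% and 6.78%. Chosen without the libraries numbered 2, 8743 higher contigs held 64.8% and 59.98% of the TPM in second-sampling replicates 1 and 3, against 24.4% and 29.8% in those of the first. In the libraries numbered 2, left out of that choice, they held 34.0% (second) and 32.0% (first). The 10640 lower ones held 10.4% and 12.8%, against 42.9% and 36.5%, and 27.2% against 30.8% in the libraries numbered 2.

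**Figure D4:**
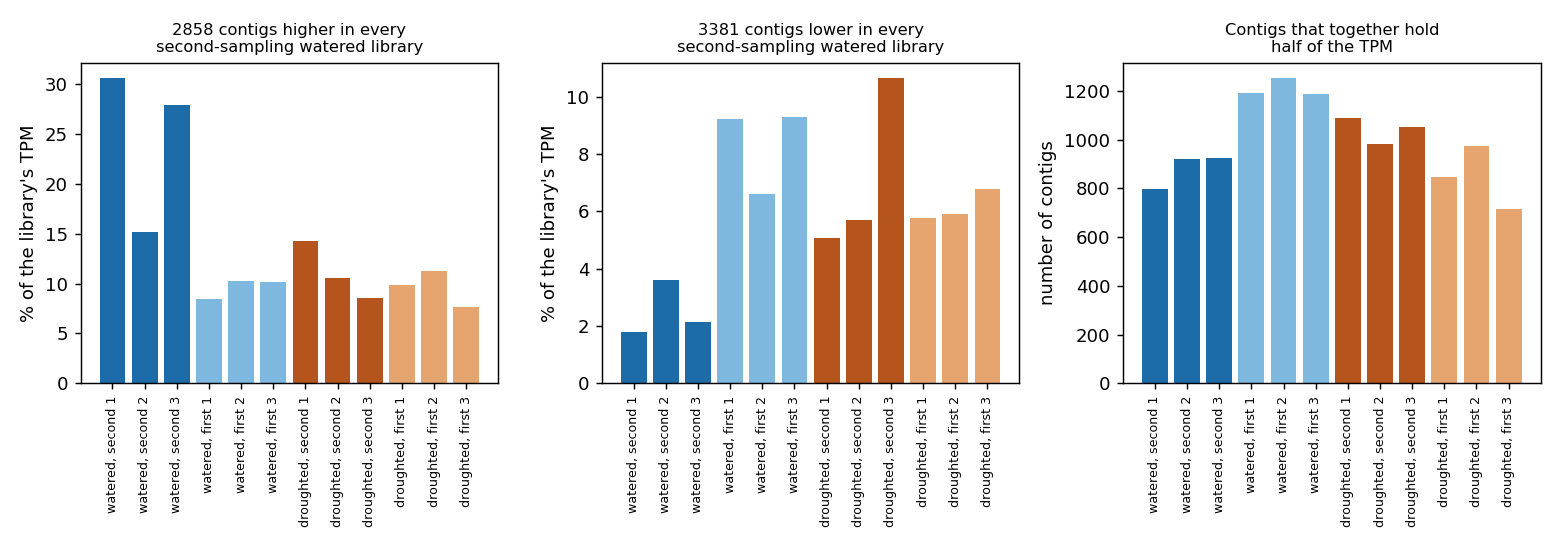
Per library, the percentage of TPM held by the contigs higher (left) or lower (middle) in every second-sampling watered library, and the number of contigs that hold 50% of the TPM (right). Watered second-sampling replicate 2 has 15.1% in the left panel, between replicates 1 and 3 (30.6% and 28.0%) and the first-sampling libraries (8.50% to 10.3%).

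On contigs called without either of them, the libraries numbered 2 differed in the direction of the other libraries more often than over all contigs. Their difference was smaller than that of the libraries that chose the contigs. On the 1542 higher and 1540 lower contigs called without second-sampling replicate 2 and present in the fit above, its place was computed between the mean of the first-sampling libraries (0) and that of second-sampling replicates 1 and 3 (1). The median place was 0.262 on the higher and 0.141 on the lower contigs, with interquartile ranges of 0.121 to 0.400 and -0.026 to 0.307. Both ends of this scale come from libraries that chose the contigs, first-sampling replicate 2 included. A library left out therefore tends to lie short of 1 through the choice itself. Replicate 2 of the second sampling lay beyond all first-sampling libraries in 62.4% of the higher and 42.7% of the lower contigs. It reached the nearer of the other second-sampling libraries in 1.95% and 1.43%. The shares over all contigs were not computed for these measures, and some contigs show such an order without any change. On the 848 higher and 978 lower contigs called without either library numbered 2, replicate 2 of the second sampling exceeded replicate 2 of the first in 81.3% of the higher contigs and was lower in 59.1% of the lower ones. Over all contigs tested these shares were 49.7% and 49.8%. The median difference between the libraries numbered 2 was 0.59 and -0.12 on these contigs, against 2.43 and -2.53 between the other libraries, which chose them. Over the 33602 contigs the difference between the libraries numbered 2 correlated with that between replicates 1 and 3 with r = 0.163 and rho = 0.187, as a description across contigs that share the scaling of the libraries. A change of at least 2-fold was seen in 27.5% of contigs between the libraries numbered 2, a single library each, and in 45.4% between the means of the others.

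**Figure D5:**
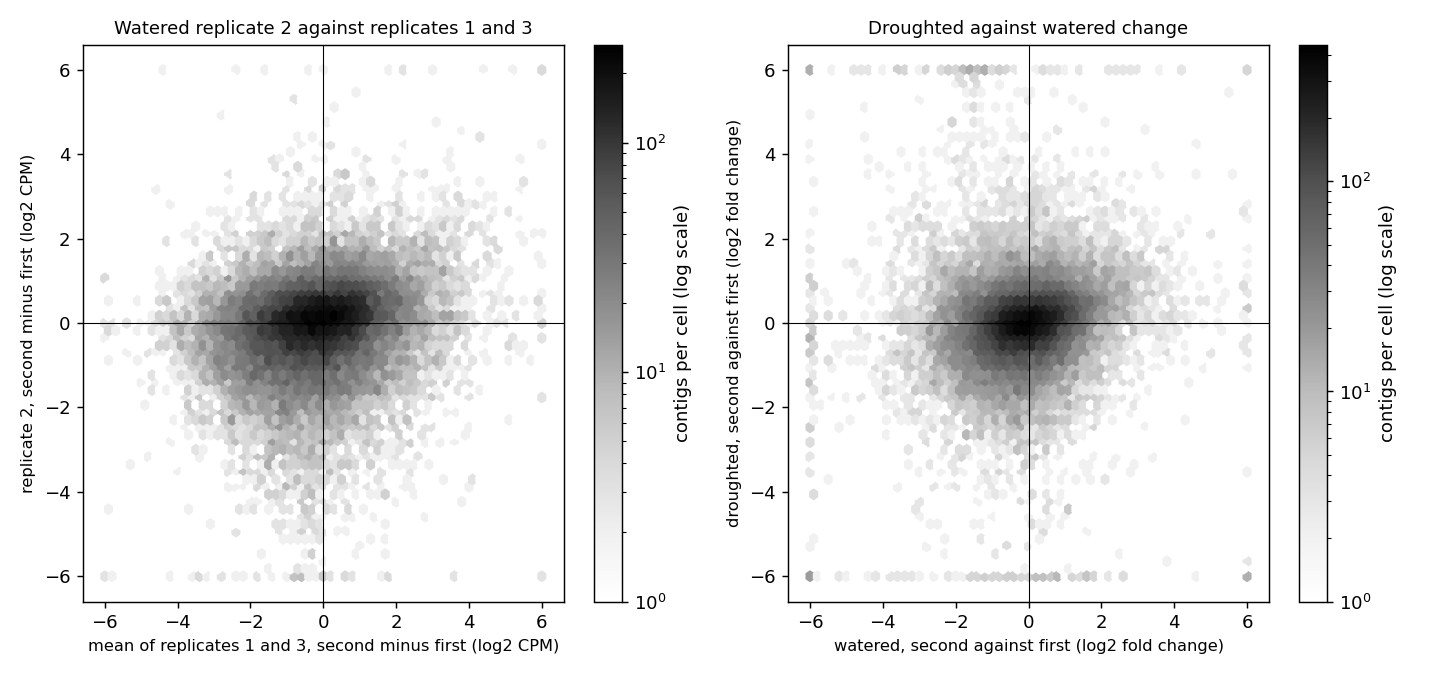
Left, difference of log2 CPM between the samplings in the watered libraries numbered 2 (vertical) against that in watered replicates 1 and 3 (horizontal). Right, log2 fold change of droughted leaves (vertical) against that of watered leaves (horizontal), second against first sampling. Shading is the number of contigs on a log scale, and values beyond 6 in either direction are drawn at 6. The changes correlate weakly in both panels (r = 0.163 left and 0.069 right).

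Few contigs were seen at a single sampling. With at least 10 estimated counts in each library of one sampling and none in the other, 3 contigs were found in watered leaves of the second sampling and 15 in those of the first. The 3 had mean levels of 1.57 to 6.33 CPM and the 15 of 0.454 to 5.84 CPM. Of the 15, 2 were among the called contigs and all had counts in some droughted library, 6 of them in each of the 6. Of the 3, 1 had no count in any droughted library. Leaving out any one watered library raised the total of 18 to between 41 and 143. Without second-sampling replicate 3, the shallowest, 17 contigs were found at the second sampling alone and 26 at the first alone, and without second-sampling replicate 2 these numbers were 7 and 136. Over all 12 libraries, 3 contigs had at least 100 counts in each watered second-sampling library and under 10 in each of the 9 others, against 2 for watered leaves of the first sampling and 0 for either droughted group.

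The change in watered leaves was set against that in droughted leaves, which share no library. The droughted change includes second-sampling replicate 3, which correlated better with watered first-sampling replicates 1 and 3 than with its own group. No contig passed the test of the difference between these changes (edgeR, 0 of 33602, 0%), while 3081 had an unadjusted p under 0.05. DESeq2 called 422 of 32333, and limma-trend 4 on log2(TPM + 1) and 4 on log2(TPM + 0.1). Over all contigs tested the changes correlated with r = 0.069 and rho = 0.148, as a description. Of the 2858 contigs higher without overlap in watered leaves, 320 were also higher without overlap in droughted leaves, which is 11.2% of these and 16.1% of the 1983 droughted ones, whereas 5.90% of all contigs tested were higher in droughted leaves in this sense. Of the 3381 lower contigs, 296 were also lower in droughted leaves, 8.75% of these and 12% of the 2463 droughted ones, against 7.33% of all contigs. A further 76 of the higher contigs were lower in droughted leaves and 115 of the lower ones higher. Without the watered libraries numbered 2 the correlations were 0.108 and 0.132 on log2 CPM differences. Of the 8743 contigs then higher without overlap, 865 were higher in droughted leaves (9.89% of these, 43.6% of the droughted ones). Of the 10640 lower, 912 were lower (8.57% and 37.0%). Over all contigs tested, 26.0% were then higher and 31.7% lower without overlap in watered leaves. A further 380 of the higher contigs were lower in droughted leaves, and 420 of the lower ones were higher.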

How the data were processed

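Watered and droughted leaf libraries (3 per group and sampling) were taken as labelled. The submitters' processing notes name cutadapt 1.9 and RSEM, without a version. The aligner and the assembler are in none of these notes and so are not given here. The deposited estimated counts are reads that RSEM divided among contigs, without normalization. The deposited TPM of the authors corrects these for contig length and brings every library to one common sum. The deposited contig lengths are in bases.

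Estimated counts were rounded and fitted with edgeR 4.0.16 (R 4.3.3): TMM, default filter by group (33602 of 47568 contigs kept), quasi-likelihood fit of the 4 groups over 12 libraries (common biological coefficient of variation 0.685), Benjamini-Hochberg adjustment over all contigs, threshold 0.05. The standard error is the log2 fold change divided by the root of F. CPM uses the TMM factors, and log2 CPM a prior count of 2. Other settings were libraries left out, a fit of the 6 watered libraries, a block for the replicate number, RLE and upper-quartile size factors, stricter and looser filters, DESeq2 1.42.0, and limma 3.58.1 (trend method) on TPM with 1 or 0.1 added before taking log2. The fit was run on data simulated from its own estimates of the spread. No simulated library departed from its group, so this run cannot speak to such a library. Intervals cover counting error only.

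Described contigs were the 2 rising and 2 falling with the smallest p among called contigs without overlap. The groups, lists and rules were chosen with earlier results of these data known. No replicate pair agreed within sampling noise (lowest chi-square per degree of freedom 76.6).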

Additional observations from a re-analysis of the deposited data

Results flagged for a closer look

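The number of contigs holding 50% of the TPM moved in opposite directions with time in watered and in droughted leaves. Every watered library of the second sampling had fewer such contigs than every one of the first (796 to 923 against 1186 to 1253, a difference of means of -330). Every droughted library of the second sampling had more than every one of the first (982 to 1088 against 716 to 975, a difference of 196.0). The watered difference minus the droughted one was -526 contigs, which was not tested. Between the droughted samplings the nearest libraries, at 982 and 975 contigs, were close.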

How the results depend on the processing

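The number of contigs called between the samplings depended on tool, scaling, filter and library, and the cause was not tested. Against 7 above, DESeq2 gave 2269 (1447 higher, 822 lower), limma-trend 42 on log2(TPM + 1) and 26 on log2(TPM + 0.1), RLE size factors 1, upper-quartile size factors 3, at least 10 counts in every library 2, a fit of the 6 watered libraries 0 (3998 contigs at an unadjusted p under 0.05), and leaving out both watered libraries numbered 2 gave 1833. Keeping every contig with any count gave 6. Leaving out single libraries gave 0 to 3090. For the difference between the watered and the droughted change, against 0 above, these settings gave 422 with DESeq2, 4 and 4 with limma-trend, 1 with at least 10 counts in every library, 2 without both libraries numbered 2 and 0 to 4 without single libraries. Contigs without overlap numbered 7931 to 15374 (23.6% to 45.8%) without single watered libraries and 19383 (57.7%) without both numbered 2. Contigs of a single sampling, 18 above, numbered 134 with at least 3 counts, 284 without both libraries numbered 2 and 41 to 143 without single libraries. The sampling difference in the share of the 10 most abundant contigs, 1.63 percentage points, ran from -0.639 to 2.86 without single libraries and was negative without second-sampling replicate 2. Without single libraries, the difference in contigs detected at a common depth ran from -3350 to -1599. That in contigs holding 50% of the TPM ran from -352 to -289, and for 50% of the estimated counts it was -475. Both differences kept their direction in all settings tried.

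With the replicate number as a block the count was 1 over 12 libraries, with 0 for the difference from droughted leaves, and 0 in the 6 watered libraries (3466 contigs at an unadjusted p under 0.05). Same-numbered watered libraries, after subtracting group means, correlated with -0.067, 0.212 and 0.127 for numbers 1, 2 and 3, and 3 of the 6 libraries correlated best with their own number, so the numbers were not treated as pairs. The block in the 6 watered libraries, the library totals and TPM scaling of the median, the measure of contigs holding 50% of the TPM, and leaving out libraries in the counts and shares of contigs without overlap, of a single sampling or set beside droughted leaves were added after the data were seen.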
